A study of Mus musculus with 4 samples.

Results

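The 10 genes described here encode regulators of the G1 phase of the cell cycle: the D-type cyclins *Ccnd1*, *Ccnd2* and *Ccnd3*, the E-type cyclins *Ccne1* and *Ccne2*, the kinases *Cdk4* and *Cdk6*, and the kinase inhibitors *Cdkn1a*, *Cdkn1b* and *Cdkn2c*. They were picked by gene symbol, and each symbol matched 1 of the 21091 entries of the deposited expression tables. RNA-seq was performed on 4 libraries, 1 per group, from C57BL/6 mouse brain progenitors isolated at embryonic day 11 (E11) or 14 (E14) and grown in suspension for 3 days before RNA was taken. At each stage a *Stat3* conditional knockout (cKO) was set beside a control (CTL). In the cKO, Cre driven by a rat Nestin promoter and enhancer deletes the floxed exons of *Stat3* that encode its SH2 domain in Nestin-expressing cells, so that other cells keep the gene. The labels call the control wild type, whereas the animal methods of the study describe Nestin-Cre *Stat3*-flox/+ controls. Whether the sequenced controls carried Cre and 1 floxed allele is therefore not settled here. With 1 library per group, no spread between replicates could be measured and no test between groups was possible. A gene was called higher or lower only at a 2-fold difference, and counts were read beside the share of all genes past 2-fold in that direction.

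Cells enter the cycle when mitogens raise D-type cyclins, which bind CDK4 and CDK6 and begin the phosphorylation of the retinoblastoma protein RB. This frees E2F transcription factors, which switch on E-type cyclins and the genes of DNA replication, and cyclin E with CDK2 carries the cell into S phase. The INK4 inhibitors, such as the *Cdkn2c* product p18, bind CDK4 and CDK6, while the CIP/KIP inhibitors p21 (*Cdkn1a*), p27 (*Cdkn1b*) and p57 (*Cdkn1c*) bind complexes of cyclin and kinase. In the embryonic brain, the length of G1 and the choice of progenitors between dividing again and becoming neurons are known to be linked. All values below are messenger RNA levels, as FPKM (fragments mapped to a gene, divided by its transcript length and by the size of the library, so that genes can be compared with each other), and say nothing of protein or of kinase activity. In cultured populations, fewer cells of a type and less RNA per cell cannot be told apart.

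The libraries were checked before the 10 genes were compared. *Stat3*, counted over the whole gene, was at 7.41 and 6.74 FPKM in the E11 CTL and cKO libraries and at 27.6 and 9.55 FPKM at E14. The cKO level was thus 2.89-fold lower at E14, whereas the E11 libraries differed by 1.10-fold. A whole-gene value includes exons outside the deleted ones and is no direct check of the deletion, so that a loss of *Stat3* is not shown at E11, and E11 cKO below means the library labelled so. *Ddx3y*, a Y-linked gene, was listed at 0 in both E11 libraries, at 0.0569 FPKM in E14 CTL and at 25.1 FPKM in E14 cKO, while *Xist*, which is expressed from the inactive X chromosome, was at 46.9, 39.7, 13.6 and 0.0370 FPKM in E11 CTL, E11 cKO, E14 CTL and E14 cKO. At E14 the sex chromosome genes therefore separated the libraries as genotype did, and their parts cannot be told apart. All 10 G1 genes are autosomal, which does not bear on whether sex affected them. All 12 neural progenitor markers were at 1 FPKM or more in every library, with sums of 1628, 1795, 7542 and 8193 FPKM in the same order. The sum is dominated by *Fabp7* (516 FPKM in E11 CTL and 5245 FPKM in E14 CTL), and 5 of the 12 were lower in E14 CTL than in E11 CTL, *Pax6* (44.2 and 14.6 FPKM) and *Msi1* (21.2 and 4.25 FPKM) among them. Between the E14 libraries, all of the 12 but *Hes1* (27.3 FPKM in CTL and 17.2 FPKM in cKO) and *Vim* were higher in cKO. *Hes5* was at 124 FPKM in E14 CTL and 294 FPKM in E14 cKO. The 7 mesenchymal markers, which include the collagen *Col3a1*, summed to 1326 and 1171 FPKM at E11 and to 15.9 and 10.4 FPKM at E14, so that a sizeable non-neural transcript load went with stage. Its part in the stage ratios below was not tested. Within a stage, the summed neuronal markers differed less (688 and 722 FPKM at E11, 938 and 816 FPKM at E14). All of them but *Syt1* were lower in E14 cKO than in E14 CTL. The 5 oligodendrocyte lineage markers summed to 67.4, 87.8, 560 and 532 FPKM. *Olig1* and *Olig2* carried most of that sum at E14. *Sox10* was at 6.74 FPKM in E14 CTL and 20.6 FPKM in E14 cKO, and *Pdgfra* at 35.9 and 61.2 FPKM. The part of these marker differences in the E14 ratios was not tested. Microglial and leukocyte markers summed to 7.47 FPKM or less, and endothelial markers to 4.67 FPKM or less.

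At E14, *Ccnd1* and both E-type cyclins were lower in the *Stat3* cKO library than in CTL, while *Cdk4* and *Cdkn1b* were near the CTL level. Of the 10 genes, 3 were at least 2-fold lower (*Ccnd1*, *Ccne1* and *Ccne2*), against 1.69% of the 12430 genes tested. Under upper-quartile scaling of the libraries *Ccne1* was at a log2 ratio of -0.97 and the count was 2. None was 2-fold higher, against 1.85%. The median log2 ratio of the 10 genes was -0.82 and that of all genes tested was -0.079. The ratios just inside and just outside the threshold were close together: *Ccne1* was 2.18-fold lower, *Cdkn1a* 1.98-fold lower and *Ccnd2* 1.95-fold lower.

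At E11, no G1 gene was 2-fold apart between the genotypes, where the cKO level passed 2-fold upward for 0.209% of all genes and downward for 1.12%. All 5 cyclins had log2 ratios above 0 here and below 0 at E14, as had 38.7% of all genes tested at both stages. *Ccnd3* was above 0 at E11 only as the values were deposited. Of the 10 log2 ratios, 9 were above 0, with a median of 0.25 against 0.059 for all genes, and 61.8% of all genes were above 0. The exception was *Cdkn1a*, at -0.57. Under both other scalings 7 of the 10 were above 0, *Ccnd3* and *Cdkn1b* being slightly below it.

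Between the stages, CTL and cKO are set side by side, with each E14 library compared with the E11 library of the same genotype label. Beyond that label the libraries are not paired. In CTL, 4 of the 10 had at least doubled levels at E14 (*Ccnd1*, *Ccne1*, *Ccne2* and *Cdkn2c*), against 14.6% of all genes, and none was 2-fold lower, against 12.5%. In cKO, *Cdkn2c* alone was at least 2-fold higher, against 10.1% of all genes, and *Ccnd1*, *Ccnd2*, *Ccnd3* and *Cdkn1a* were at least 2-fold lower, against 11.7%. The median log2 ratio of the 10 genes was 0.48 in CTL and -0.86 in cKO, where the medians of all genes were 0.21 and 0.058. The 10 genes were thus spread over both sides of the threshold in the cKO, but on the upper side only in CTL as the values were deposited. When each library was scaled to its upper quartile, the CTL count became 2 higher and 2 lower (*Cdkn2c* and *Ccne2* against *Ccnd3* and *Cdkn1a*), while the split of all genes turned from 14.6% and 12.5% to 7.21% and 18.0%.

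**Figure D1:**
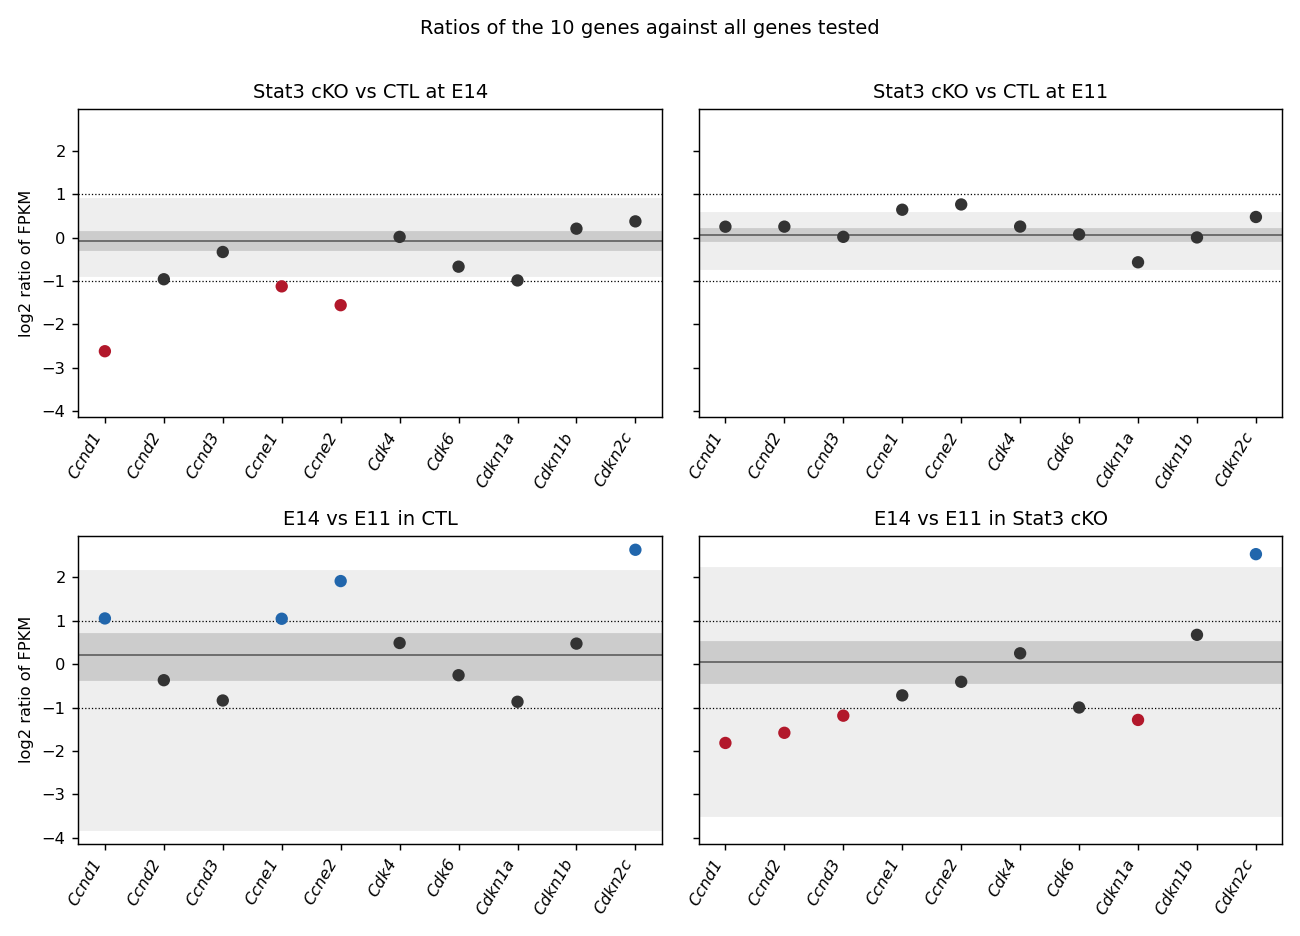
Log2 ratios of FPKM for the 10 genes in the 4 comparisons (1 library per group). The light band holds the central 95% of all genes tested, the darker band the middle 50%, the grey line their median, and dotted lines mark 2-fold; red and blue points lie past it. *Ccnd1* at -2.62 in the E14 genotype comparison lies far below the light band, and *Ccne2*, *Ccne1*, *Cdkn1a* and *Ccnd2* also lie below it there. *Ccne1* and *Ccne2* lie above the band in the E11 genotype comparison. *Cdkn2c* at 2.63 and 2.53 lies above it in both stage comparisons.

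*Ccnd1*, encoding cyclin D1, was the G1 cyclin with the highest level in all 4 libraries. Its level was 101 FPKM in E11 CTL, 120 FPKM in E11 cKO, 210 FPKM in E14 CTL and 34.2 FPKM in E14 cKO. The E14 CTL library was the highest and the E14 cKO library the lowest. At E14 the cKO level was 6.14-fold lower (log2 ratio -2.62), and 7 of the 9200 genes averaging 5 FPKM or more had a lower ratio. In rank, *Ccnd1* exceeded 96.1% of the genes tested in E14 CTL and 78.4% in E14 cKO. From E11 to E14 it was 2.07-fold higher in CTL and 3.51-fold lower in cKO, while at E11 the genotypes differed by a log2 ratio of 0.25. *Ccnd1* is listed at chr7:152115835-152125830, and the files list no other entry over that locus. Its nearest tested neighbours on either side, *Oraov1* and *Tpcn2*, were not 2-fold apart between the E14 libraries (4.86 and 5.71 FPKM for *Oraov1*, 1.25 and 1.12 FPKM for *Tpcn2*, CTL and cKO).

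*Ccnd2*, the cyclin D2 gene, was at 84.2, 100.1, 65.2 and 33.5 FPKM in E11 CTL, E11 cKO, E14 CTL and E14 cKO. The order of the libraries was not that of *Ccnd1*, since both E14 libraries were below both E11 libraries. The E14 cKO level was 1.95-fold below E14 CTL, just short of the threshold, and 2.99-fold below E11 cKO. *Ccnd3*, the cyclin D3 gene, was the lowest of the 3 D-type cyclins everywhere, at 30.7, 31.0, 17.2 and 13.7 FPKM. Its E11 libraries were nearly level (log2 ratio 0.016), and at E14 the log2 ratio of cKO to CTL was -0.33. From E11 to E14 its log2 ratio was -0.84 in CTL and -1.19 in cKO. The locus listed for *Ccnd2*, chr6:127075726-127162437, is shared with *9330179D12Rik*, which was at 0.587 FPKM or less. That of *Ccnd3*, chr17:47641999-47748441, is shared with *Bysl* (10.6, 11.0, 14.3 and 9.19 FPKM), and how reads over shared loci were split is not stated.

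*Ccne1* and *Ccne2*, encoding cyclins E1 and E2, both peaked in E14 CTL. *Ccne1* stood at 9.50 FPKM in E11 CTL, 14.8 FPKM in E11 cKO, 19.6 FPKM in E14 CTL and 8.99 FPKM in E14 cKO. *Ccne2* stood at 4.95, 8.38, 18.6 and 6.32 FPKM. For both genes the E14 CTL library was the highest and the E11 cKO library the second. At E14, *Ccne1* was 2.18-fold and *Ccne2* 2.94-fold lower in the cKO, whereas at E11 they were 1.56-fold and 1.69-fold higher, with 58 of 9198 genes above *Ccne2*. In CTL, the level at E14 was 2.06-fold that at E11 for *Ccne1* and 3.76-fold for *Ccne2*. In cKO the corresponding log2 ratios were -0.72 and -0.41. *Ccne1* is listed at chr7:38883002-38892509 and *Ccne2* at chr4:11118500-11181406, a locus shared with *Ints8* (16.3, 23.9, 26.3 and 19.9 FPKM).

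**Figure D2:**
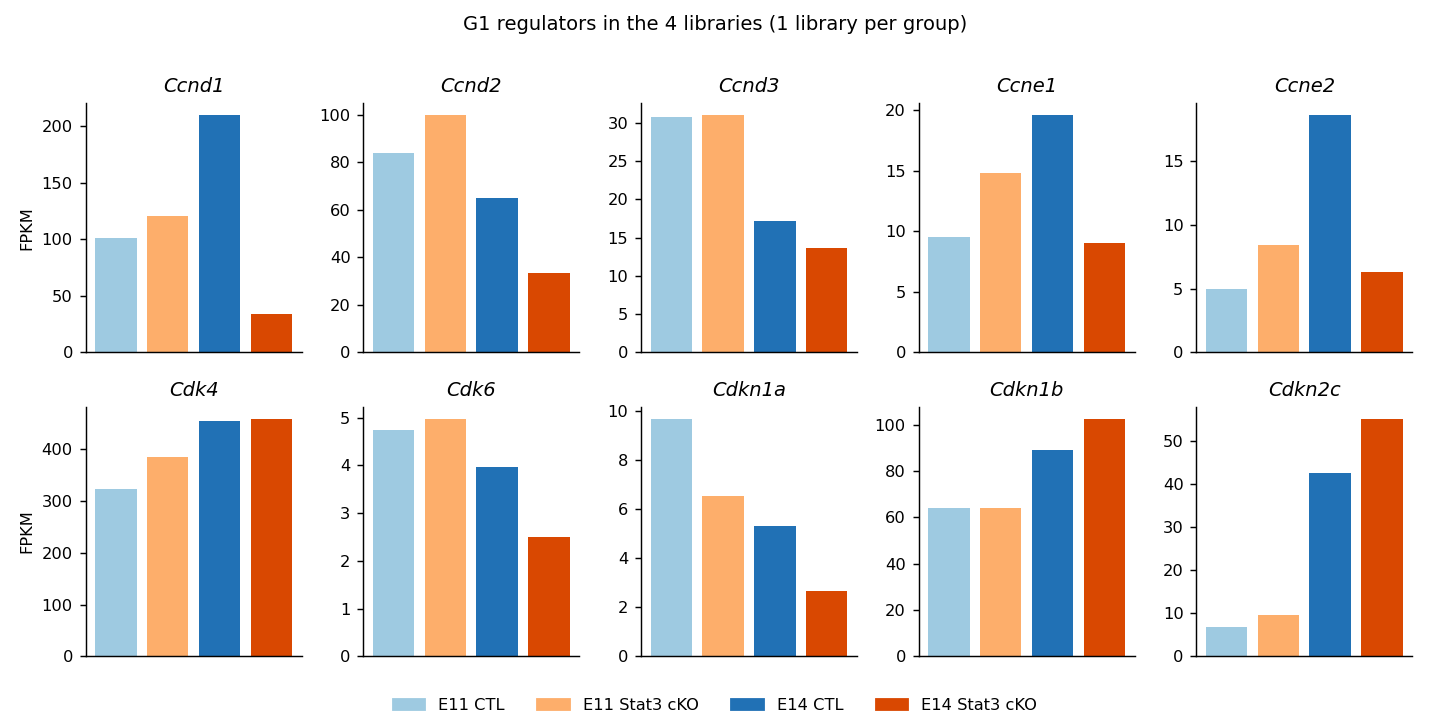
FPKM of the 10 genes in the 4 libraries, with 1 bar per library, a linear axis from 0 in each panel and no error bars because each group is 1 library. *Ccnd1*, *Ccne1* and *Ccne2* are highest in E14 CTL (210, 19.6 and 18.6 FPKM), *Cdk4* lies between 324 and 459 FPKM, and *Cdkn2c* is high in both E14 libraries.

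The kinase genes differed from each other in level and in pattern. *Cdk4* had the highest level of the 10 genes in every library, at 324, 386, 454 and 459 FPKM in E11 CTL, E11 cKO, E14 CTL and E14 cKO. The E14 libraries were nearly equal, with a log2 ratio of 0.014, and none of its 4 ratios reached 2-fold. *Cdk6* had the lowest level of the 10 in every library, at 4.74, 4.98, 3.97 and 2.49 FPKM, which ranks the libraries as *Ccnd2* and *Ccnd3* do. It was lowest in E14 cKO, where the log2 ratio was -0.67 to E14 CTL and the ratio to E11 cKO was 0.501, just short of 2-fold. *Cdk4* thus made up 98.6% to 99.5% of the summed *Cdk4* and *Cdk6* FPKM. *Cdk4* is listed at chr10:126500658-126504338 and *Cdk6* at chr5:3344311-3522225.

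The inhibitor genes did not share a pattern. *Cdkn1b* and *Cdkn2c* ranked the libraries in the same order, with changes of unlike size, whereas *Cdkn1a* ranked them in the reverse order. *Cdkn1a*, a textbook target of p53, was at 9.70 FPKM in E11 CTL, 6.53 FPKM in E11 cKO, 5.32 FPKM in E14 CTL and 2.68 FPKM in E14 cKO. It was lower in cKO than in CTL at both stages (log2 ratios -0.57 and -0.99) and lower at E14 than at E11 in both genotypes (-0.87 and -1.28), and only the last passed 2-fold. *Cdkn1b*, which encodes p27, was at 64.2, 64.3, 89.1 and 102.6 FPKM. The E11 libraries were level (log2 ratio 0.0016), and none of its ratios reached 2-fold, the largest log2 ratio being 0.67 between the cKO stages. *Cdkn2c* was at 6.88, 9.54, 42.7 and 55.2 FPKM, so that both E14 libraries lay well above both E11 libraries. Its level was 6.20-fold higher at E14 in CTL and 5.78-fold higher in cKO, and at each stage the cKO library was the higher one, by log2 ratios of 0.47 and 0.37. The listed loci are chr17:29227930-29237667 for *Cdkn1a*, chr6:134870418-134875543 for *Cdkn1b* and chr4:109333480-109337977 for *Cdkn2c*.

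The promoters of *Cdk4* and *Cdkn1a* are shown because a search of the stretch upstream of the start sites found motifs there for factors whose own levels were measured. RefSeq windows of GRCm38.p6 were matched for 7 of the 10 genes (10 windows), and the 250 bases before the start were read on both strands. The set of promoter windows used here held none for *Ccnd1*, *Ccnd2* and *Ccne2*, which were therefore not searched. The *Cdk4* window, on the plus strand at chr10:127063285-127063534, holds 4 copies of the E-box CACGTG, the letters bound by MYC with MAX, and these are in capitals. They begin 172, 118, 98 and 11 bases before the start site. The upstream *Cdkn1a* window, on the plus strand at chr17:29090729-29090978, holds a pair of CATG cores 6 bases apart, the spacing of the paired cores in a p53 element. Capitals run from the first core to the second, beginning 48 bases before the start site of that window. The other *Cdkn1a* window, at chr17:29093519-29093768, holds no such pair.
Cdk4: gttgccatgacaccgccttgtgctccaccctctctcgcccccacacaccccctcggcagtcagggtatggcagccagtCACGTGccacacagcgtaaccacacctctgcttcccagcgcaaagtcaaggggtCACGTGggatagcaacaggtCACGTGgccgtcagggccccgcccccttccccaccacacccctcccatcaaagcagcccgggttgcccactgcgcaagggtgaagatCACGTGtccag
Cdkn1a: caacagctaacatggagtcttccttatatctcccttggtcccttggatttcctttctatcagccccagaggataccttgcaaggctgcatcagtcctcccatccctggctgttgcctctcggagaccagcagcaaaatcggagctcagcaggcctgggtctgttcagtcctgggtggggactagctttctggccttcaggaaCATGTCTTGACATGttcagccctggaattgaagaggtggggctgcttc
Of 32851 RefSeq windows, 6.02% held CACGTG and 0.490% held the paired cores. The E-box was also found in the *Cdk6* window. Both motifs were added after the sequences had been seen. The E2F letters TTTCGCGC, TTTGGCGC, TTTCCCGC and TTTGCCGC (0.256%, 0.417%, 0.895% and 0.338% of all windows) and the STAT letters TTCNNNGAA (7.02%) were in none of the 10 windows. These windows do not cover *Ccnd1*, *Ccnd2* and *Ccne2*. A match is a run of letters and not a measured binding site.

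The factors that read these letters had levels of their own, named here for that role. *Myc* was at 1.37, 0.990, 5.85 and 3.35 FPKM in E11 CTL, E11 cKO, E14 CTL and E14 cKO, and its relative *Mycn* at 24.3, 23.8, 18.3 and 17.9 FPKM. *Myc* was 4.27-fold higher at E14 in CTL and 3.39-fold higher in cKO, whereas no ratio of *Mycn* reached 2-fold. *Trp53*, the p53 gene, was at 12.9, 14.9, 9.31 and 5.89 FPKM, and its lowest library was E14 cKO, as for *Cdkn1a*. In cKO *Trp53* was 2.52-fold lower at E14 than at E11. At E11 the 2 genes lay on opposite sides of equality between genotypes, with log2 ratios of 0.20 for *Trp53* and -0.57 for *Cdkn1a*. A link between their levels was not tested.

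Ratios between sums taken within a library do not depend on how libraries were scaled to each other, unlike the sums themselves, so the balance of the families was compared next. The D-type cyclins summed to 216, 252, 293 and 81.4 FPKM in E11 CTL, E11 cKO, E14 CTL and E14 cKO, and the E-type cyclins to 14.4, 23.2, 38.2 and 15.3 FPKM. *Cdk4* and *Cdk6* together were at 329, 391, 458 and 461 FPKM. The sum of D-type cyclins per unit of these kinases was 0.658, 0.644, 0.639 and 0.176. It was therefore similar in 3 libraries, although *Ccnd1* was 2.07-fold higher in E14 CTL than in E11 CTL, and far lower in E14 cKO. Against the sum of *Cdkn1a*, *Cdkn1b* and *Cdkn2c* (80.8, 80.3, 137 and 160 FPKM), D-type cyclins stood at 2.68, 3.13, 2.13 and 0.507, so that these 3 inhibitors together exceeded the D-type cyclins in E14 cKO only. This order depends on the inhibitors summed, since *Cdkn1c*, described below, is not among them. *Cdkn1b* per *Ccnd1* was 0.634, 0.534, 0.424 and 3.00, which puts *Cdkn1b* above *Ccnd1* in E14 cKO only.

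Within the D-type cyclins, *Ccnd1* made up 46.9%, 47.9%, 71.8% and 42.1% of the sum in the same order of libraries. The E11 genotypes had nearly the same composition, with *Ccnd1* at 1.20 times *Ccnd2* in each. In E14 CTL *Ccnd1* was at 3.22 times *Ccnd2*, and in E14 cKO at 1.02 times. *Ccnd2* accordingly made up 22.3% of the D-type sum in E14 CTL and 41.2% in E14 cKO, although its own level was lower in the latter. Among the E-type cyclins *Ccne2* made up 34.2%, 36.2%, 48.7% and 41.3%. Of the inhibitor sum, *Cdkn1b* held the largest share in every library (63.9% to 80.0%), and the share of *Cdkn2c* was 8.52% in E11 CTL and 31.1% in E14 CTL, and 11.9% and 34.4% in the cKO libraries.

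**Figure D3:**
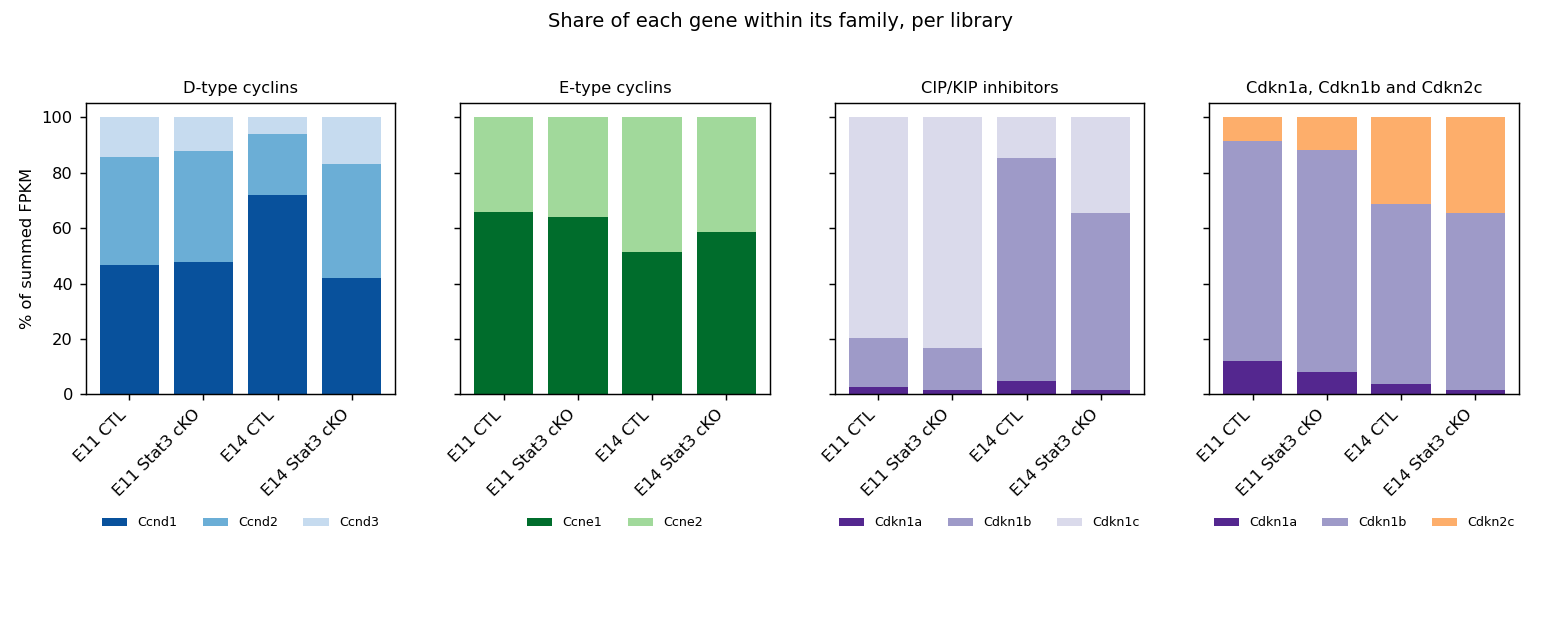
Share of each gene in the summed FPKM of its family, as stacked bars reaching 100% for each of the 4 libraries; the CIP/KIP panel adds *Cdkn1c*. *Ccnd1* holds 71.8% of the D-type cyclins in E14 CTL and 42.1% in E14 cKO, and *Cdkn1c* holds 79.7% and 83.1% of the CIP/KIP sum at E11 but 14.5% and 34.6% at E14.

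The remaining inhibitors of the 2 families were read beside the 10 genes. *Cdkn1c*, encoding p57, was at 290 FPKM in E11 CTL, 347 FPKM in E11 cKO, 16.0 FPKM in E14 CTL and 55.6 FPKM in E14 cKO. It was 18.1-fold lower at E14 in CTL and 6.24-fold lower in cKO, and at E14 it was 3.47-fold higher in the cKO. The mesenchymal marker sum was lower at E14 than at E11, and stood at 15.9 FPKM in E14 CTL and 10.4 FPKM in E14 cKO. Its markers did not all differ in the same direction between the E14 libraries, and their part in the *Cdkn1c* values was not tested. With *Cdkn1c* included, the CIP/KIP sum was 364, 418, 110 and 161 FPKM, which exceeded the D-type cyclin sum in both E11 libraries as well as in E14 cKO. *Cdkn2b*, the p15 gene, was at 5.63, 1.53, 2.80 and 2.24 FPKM, which is 3.68-fold lower in the cKO at E11 and 2.01-fold lower at E14 than at E11 in CTL. *Cdkn2d*, the p19 INK4 gene, was at 3.28, 3.30, 8.52 and 7.19 FPKM at the main of its 2 listed loci and was 2.60-fold and 2.18-fold higher at E14 in CTL and cKO, the latter no longer past 2-fold under upper-quartile scaling. *Cdkn2a* had a mean of 0.575 FPKM, below the minimum of 1 FPKM.

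Genes of DNA replication that E2F is known to drive had ratios of the same sign as the E-type cyclins in both genotype comparisons. At E14, 22 of 22 tested had a log2 ratio below 0 in cKO against CTL, with a median of -0.82, and 6 were at least 2-fold lower, where 39.9% of all genes were above 0 and 1.69% were 2-fold lower. The lowest were *Ung*, a uracil-DNA glycosylase (22.4 FPKM in CTL and 7.83 FPKM in cKO), *Cdc6*, which loads the replicative helicase (11.4 and 4.24 FPKM), and *Orc1*, a subunit of the origin recognition complex (3.84 and 1.53 FPKM). At E11, all 22 were above 0, with a median of 0.41 and none past 2-fold, against 61.8% of all genes above 0. All 22 were above 0 in CTL between the stages as well, against 60.5% of all genes. Of these, 14 were at least 2-fold higher, against 14.6% of all genes, among them the thymidine kinase *Tk1* (4.64-fold) and the polymerase clamp *Pcna* (187 to 575 FPKM). In cKO the stage median was -0.28, with 8 above and 14 below 0 and none past 2-fold. The CTL stage count of 14 was 10 with ratios centred on the all-gene median and 6 under upper-quartile scaling, where 7.21% of all genes were 2-fold higher. Under upper-quartile scaling the E14 genotype counts were 22 below 0 and 5 past 2-fold, and the E11 count was 21 above 0.

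Genes of G2 and mitosis differed from this. At E14, 10 of 18 were above 0 and 8 below in cKO against CTL, with a median log2 ratio of 0.015 and none past 2-fold. Of all genes, 39.9% were above 0 there. At E11, 18 of 18 were above 0, against 61.8% of all genes, with a median of 0.59, the highest of the lists, and none past 2-fold. Between the stages in CTL, 10 of 18 were at least 2-fold higher, against 14.6% of all genes, led by *Cdc20* (43.3 to 116.5 FPKM), *Cenpa* (26.5 to 67.7 FPKM) and *Kif11* (31.8 to 79.0 FPKM), which act at the spindle checkpoint, the centromere and the spindle. That count was 3 with ratios centred on the all-gene median and 1 under upper-quartile scaling, against 7.21% of all genes. In cKO 15 of 18 were above 0 between the stages, against 53.3% of all genes, with a median of 0.45 and none past 2-fold. Other cell cycle cyclins and kinases, which include the subunits of the CDK-activating kinase, were read as well. Of 9 tested, none was 2-fold apart between genotypes at either stage, and 5 were at least 2-fold higher at E14 in CTL, against 14.6% of all genes, led by *Cdk1* (29.6 to 111 FPKM), *Ccna2* (60.6 to 183 FPKM) and *Ccnb1* (73.9 to 206 FPKM). Under both other scalings that count was 3. In cKO none of the 9 was past 2-fold between the stages.

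RB family members, E2F factors and their partners, 18 in number, had a median log2 genotype ratio of -0.32 at E14, with 4 above 0 against 39.9% of all genes, and of 0.22 at E11, with 18 above 0 against 61.8%, and none passed 2-fold at either stage. With ratios centred on the all-gene median 6 were above 0 at E14 and 16 at E11, and under upper-quartile scaling 7 and 15. Across the stages the E2F partner *Tfdp1* was 2.08-fold higher at E14 in CTL and *Tfdp2* 2.55-fold lower. In cKO *E2f1*, an activating E2F, was 3.19-fold lower at E14, *Tfdp2* 3.09-fold lower and the RB relative *Rbl2* 2.02-fold higher. These are 1 higher and 1 lower of 18 in CTL and 1 higher and 2 lower in cKO, against 14.6% and 12.5% of all genes in CTL and 10.1% and 11.7% in cKO. Under both other scalings no gene of this list was 2-fold higher between the stages. The 14 ubiquitin ligase components and phosphatases that act on G1 regulators had medians of -0.28 at E14 and 0.21 at E11, with none past 2-fold. In CTL *Skp1a* was 2.14-fold higher at E14, and in cKO *Dtl*, which directs p21 to degradation, was 2.06-fold lower. Each is 1 of 14, against 14.6% and 11.7% of all genes. The *Skp1a* difference was below 2-fold under both other scalings, and upper-quartile scaling gave 2 lower in cKO.

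Targets of p53 other than *Cdkn1a* were counted next. Of 21 tested, 15 were below 0 at E14 (median -0.30) and 14 at E11 (median -0.23), and none passed 2-fold. The medians of all genes were -0.079 and 0.059, and 39.9% and 61.8% of all genes were above 0, so that at E14 the count is near the background. Between the stages 5 were at least 2-fold lower in CTL, against 12.5% of all genes, led by *Sesn2* (70.3 to 9.88 FPKM) and *Gadd45a* (16.8 to 3.12 FPKM), 2 were at least 2-fold higher, against 14.6%, and 4 were lower in cKO, against 11.7%. The count of 2 was 1 under both other scalings, and upper-quartile scaling put 1 target past 2-fold upward at E14 and 1 downward at E11 between genotypes. Transcription factors that act on G1 genes had medians of -0.049 at E14 and 0.10 at E11 over 20 genes. One of them, *Fos*, an AP-1 subunit induced by mitogens, was past 2-fold between genotypes, at 6.74 FPKM in E14 CTL and 2.19 FPKM in E14 cKO, which makes 1 of 20 against 1.69% of all genes. From E11 to E14, 7 of the 20 were at least 2-fold lower in CTL, against 12.5% of all genes, and 8 in cKO, against 11.7%, the lowest in both being the Hedgehog effector *Gli1* (11.3 to 0.0747 FPKM in CTL, 12.6 to 0.124 FPKM in cKO) and the Wnt effectors *Lef1* and *Tcf7l2*. In CTL 2 were at least 2-fold higher, *Fos* (7.08-fold) and *Myc*, and in cKO *Myc* alone, against 14.6% and 10.1% of all genes. Mesenchymal marker transcripts were also lower at E14 than at E11, and their part in these stage ratios was not tested.

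**Figure D4:**
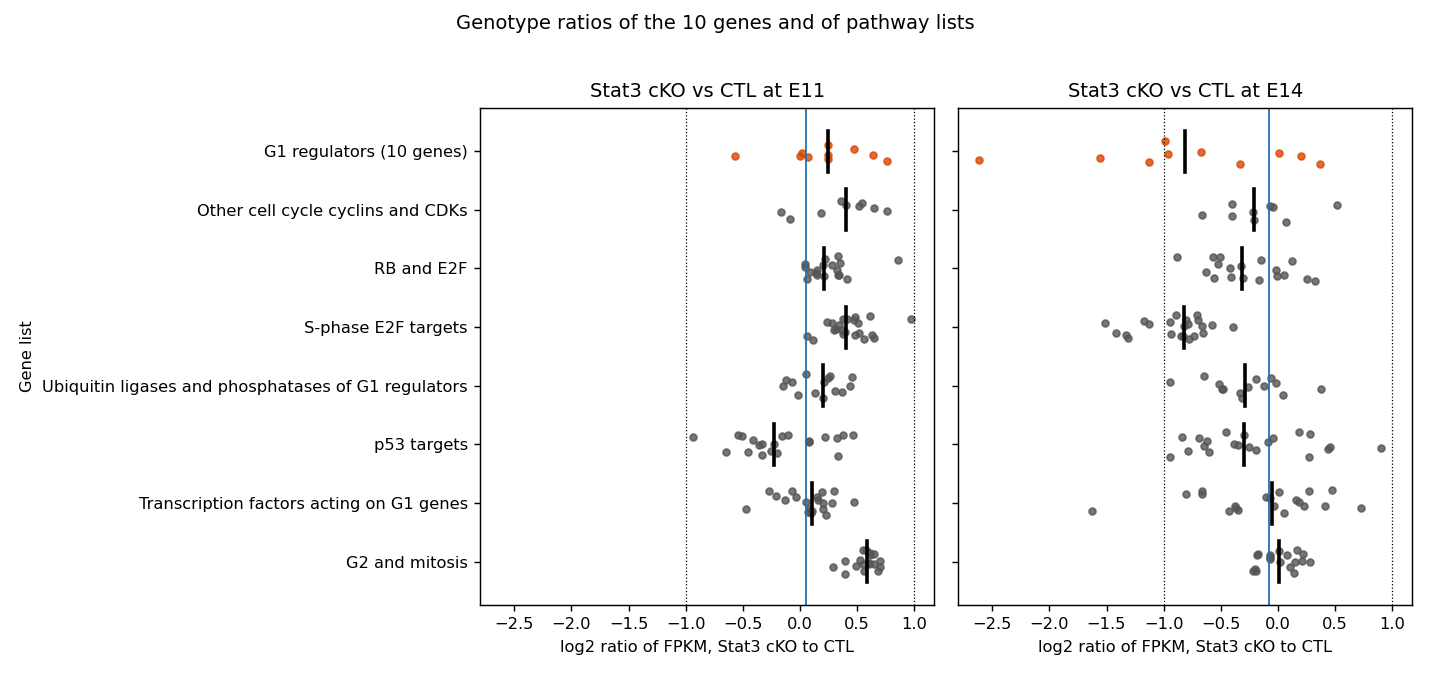
Log2 ratio of FPKM, cKO to CTL, at E11 (left) and E14 (right) for the 10 genes and for 7 pathway lists, with 1 point per gene tested (vertical scatter within a row is for display only). Black bars are list medians, the blue line is the median of all genes, and dotted lines mark 2-fold. The replication list has a median of 0.41 at E11 and -0.82 at E14, and the mitotic list 0.59 and 0.015.

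The genes nearest to the most variable members were found by the Euclidean distance between log2 FPKM profiles, each centred on its own mean over the 4 libraries, among 9191 genes. Nearest to *Cdkn2c* were *Pcx*, a pyruvate carboxylase (distance 0.122), *Ugt8a*, a galactosyltransferase of myelin lipid synthesis (0.155), and the nuclear receptor gene *Rorb* (0.215). Close to *Ccne2* were *Ung* (0.296), which also stands in the replication list, and *Vav3* (0.319). *Ccnd1* had less close neighbours: the histone gene *Hist1h2bp* (0.457; 68.5, 77.6, 204 and 25.4 FPKM), the small nucleolar RNA *Snora65* (0.564) and the growth factor *Bmp7* (0.783). These distances rest on 4 points each and are a description. By position, the 38 nearest tested neighbours of the 10 genes on their chromosomes had E14 genotype ratios between 0.445 and 1.79, and 1 of them was at least 2-fold lower and none higher, against 1.69% and 1.85% of all genes.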

How the data were processed

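Total RNA of neural progenitors grown for 3 days was sequenced on an Illumina HiSeq instrument, and the authors checked reads with FastQC and processed them with the Tuxedo (TopHat and Cufflinks) workflow. The submitters' processing notes name Bowtie 0.12.2 and the builds mm8 and mm9 without a role. Coordinates are printed as deposited. They are not those of GRCm38, since 164 chromosome 7 entries start past its last RefSeq gene there. The deposited values are FPKM, which the authors computed per library. Read counts and depth are not given in the sources used here, so no counting interval or count test was possible, and each group is 1 library. Sums of FPKM ran from 806587 to 1461770 per library, and 36.0% to 49.9% of each sum came from 10 entries. From the steps between low values, relative depth was estimated at 1.06, 0.836, 0.928 and 1 (E11 CTL, E11 cKO, E14 CTL, E14 cKO).

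Plain ratios of FPKM were taken without a pseudocount in Python 3.11.15 (pandas 2.3.3). Genes tested averaged 1 FPKM or more across libraries and had a value above 0 in both libraries of the comparison, which all 10 genes passed. The scripts were tested on simulated data. The 10 genes and the lists were chosen with earlier results of these data known. The text names all 10 genes, *Stat3*, *Ddx3y*, *Xist*, the other CDK inhibitors, from each list up to the 3 highest and 3 lowest ratios past 2-fold, and the 3 genes nearest to each of the 3 members with the widest range. Some items these rules reach are not reported here. *Trp53*, *Mycn*, *Col3a1*, *Fabp7*, *Pax6*, *Msi1*, *Hes1*, *Hes5*, *Vim*, *Syt1*, *Olig1*, *Olig2*, *Sox10*, *Pdgfra* and the chromosomal neighbours were named after their values had been seen. Of the listed genes, *Foxm1* has no entry (*Orc1l*, *Cdc45l* and *Foxo3a* are older symbols of genes found under their current ones). E2F and p53 targets were listed from textbook knowledge. Planned comparisons of protein sequence were not run. Alternatives were other pseudocounts, scalings, minimum levels and fold thresholds.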

Additional observations from a re-analysis of the deposited data

Results flagged for a closer look

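For 6 of the 10 genes, the E14 and E11 genotype ratios had opposite signs, being below 0 at E14 and above 0 at E11 on the log2 scale, as were 38.7% of all genes tested at both stages. The difference was not tested, because each ratio is between 1 library and 1 library. The log2 ratio at E14 minus that at E11 was -2.87 for *Ccnd1*, -2.32 for *Ccne2*, -1.76 for *Ccne1* and -1.21 for *Ccnd2*. It was -0.74 for *Cdk6* and -0.35 for *Ccnd3*, whose E11 ratios (0.071 and 0.016) were close to 0, and that of *Ccnd3* turned negative under the other scalings. The E14 libraries also differed in *Ddx3y* and *Xist*, and the parts of sex and genotype there cannot be told apart.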

How the results depend on the processing

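The counts of G1 genes moved with the fold threshold and with the scaling. At 1.5-fold, 6 were lower in cKO at E14 (7.67% of all genes) and 2 higher at E11 (2.18%), and 8 differed between the stages in cKO, 2 higher (21.6%) and 6 lower (20.1%). Between the stages in CTL, 4 were higher (30.3%) and 2 lower (18.9%) at 1.5-fold. At 3-fold, *Ccnd1* was the 1 gene lower at E14 (0.418% of all genes), 2 were higher between the stages in CTL (4.99%), and in cKO 2 differed, 1 higher (4.71%) and 1 lower (6.92%). With ratios centred on the all-gene median, the E14 count was again 3, and upper-quartile scaling gave 2, with *Ccne1* at -0.97. Upper-quartile scaling shifted all log2 ratios by 0.15 at E14, -0.069 at E11, -0.37 between the stages in CTL and -0.15 in cKO. Both scalings gave 2 higher and 2 lower in CTL and 1 higher and 5 lower in cKO, adding *Cdk6* to the latter. *Ccnd1* between the CTL stages was then at 0.84 and 0.68 and *Ccne1* at 0.83 and 0.68, below 2-fold. *Ccnd3* (-0.043 and -0.053) and *Cdkn1b* (-0.057 and -0.067) at E11 changed sign under these 2 scalings. With a pseudocount of 1 FPKM the CTL stage count was 3, and with 0.1 FPKM no count changed.

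The background depended on the minimum level and the scaling. Without a minimum, 8.21% of genes were 2-fold higher and 4.82% lower at E14, 2.30% and 9.11% at E11, 12.4% and 25.3% between the CTL stages, and 11.8% and 17.4% between the cKO stages. Upper-quartile scaling turned the E14 split from 1.85% higher and 1.69% lower to 2.76% and 1.10%. At a minimum mean of 5 FPKM, which *Cdk6* did not reach, 7.47% of genes were lower in CTL and 7.67% in cKO. A pseudocount of 1 FPKM gave 0.916% and 0.988% at E14 and 0.145% and 0.651% at E11. Leaving out a replicate was not possible with 1 library per group. No paired analysis was possible because each group holds 1 library and no comparison rests on a test.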
